A study of Mus musculus with 18 samples.

Results

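The 10 genes described here are factors and markers of naive pluripotency: Nanog, Tfcp2l1, Tbx3, Prdm14, Gbx2, Zfp42 (also called Rex1), Dppa3, Fbxo15, Nanos3 and Tcl1. They were taken by symbol from the 49671 genes of the count table, and all 10 were found and passed the filter on low counts. The 18 RNA sequencing samples formed 6 groups of 3 and were all of mouse embryonic stem (ES) cells that had been kept in 2i/Lif and were then grown in 3D in Matrigel depleted of growth factors. Wild-type E14 ES cells at passage 20 spent 48 h in DMSO, in CH (the GSK3 inhibitor CHIR99021 at 3 µM, which activates β-catenin), in 2i (CHIR99021 at 3 µM with the MEK inhibitor PD0325901 at 0.4 µM) or in FGF2_Activin (12 ng/ml Fgf2 plus 20 ng/ml Activin A). A second ES cell line, at passage 25, carried floxed Esrrb alleles (Esrrb fl/fl) and a tamoxifen-inducible Cre, MerCreMer, and its labelled strain was Acr-EGFP transgenic mice. It was treated with 4-hydroxytamoxifen (Esrrb_4OHT) or left untreated (Esrrb_NT) and then grown for 24 h in CHIR99021 at 3 µM. No group had the MEK inhibitor alone, so its addition was measured only on top of CHIR99021. No cells without floxed Esrrb were given 4-hydroxytamoxifen. Effects of the compound or of active Cre therefore cannot be told apart from loss of Esrrb. The lines differed in origin, passage, culture time and depth, and values were not tested between them.

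Naive pluripotency is the state of the pre-implantation epiblast, and in culture it is held by inhibitors of GSK3 and MEK. GSK3 inhibition stabilises β-catenin, which relieves repression by Tcf7l1 at targets such as Esrrb, while MEK inhibition blocks the Fgf signal that drives cells towards differentiation. When the inhibitors are withdrawn, naive factors decline and genes of the formative, early post-implantation epiblast rise. The comparisons ask how far each factor depended on CHIR99021, on the MEK inhibitor and on Esrrb.

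The 10 genes fall into 2 kinds. Nanog (a homeodomain protein), Tfcp2l1 (of the CP2 family), Tbx3 (a T-box factor), Prdm14 (which represses Fgf signalling and de novo DNA methylation) and Gbx2 (a homeodomain protein) are transcription factors that sustain self-renewal. The others are best known as markers: Zfp42 encodes a zinc finger protein related to YY1, Dppa3 a protein that shields DNA methylation in the early embryo, Fbxo15 an F-box protein, Nanos3 an RNA-binding protein of germ cells, and Tcl1 a co-activator of the kinase Akt. In GRCm38 they lie on 6 chromosomes. Nanog (chr6:122707489-122714633, plus strand) and Dppa3 (chr6:122626410-122630272, plus strand) are neighbours.

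The stretches upstream of the annotated start were in the RefSeq table (GRCm38.p6) for 6 of the 10 genes. Of these, 4 are shown, 5′ to 3′ on the gene's own strand. They are Nanog and Tfcp2l1, whose levels were high with CHIR99021, and Tcl1 and Nanos3, which differed in opposite directions after 4OHT. The Nanog and Tfcp2l1 stretches end at the base before the start. The Tcl1 stretch was cut to 194 bases to leave out exons, and it ends beside the GENCODE start of the gene, 105222793. The Nanos3 stretch ends at the base before the RefSeq start but lies within the GENCODE span of the gene, chr8:84173731-84185217. Capitals mark the motifs that were searched for on both strands. For Oct factors the motif was TTTGCAT. For Sox factors it was ACAATG. For Klf factors it was GGGCGTG, which reads as CACGCCC on the other strand. For Esrrb it was AAGGTCA. For TCF/LEF factors CTTTGAA was searched for, and also CTTTGAT.
Nanog, chr6:122707239-122707488, plus strand: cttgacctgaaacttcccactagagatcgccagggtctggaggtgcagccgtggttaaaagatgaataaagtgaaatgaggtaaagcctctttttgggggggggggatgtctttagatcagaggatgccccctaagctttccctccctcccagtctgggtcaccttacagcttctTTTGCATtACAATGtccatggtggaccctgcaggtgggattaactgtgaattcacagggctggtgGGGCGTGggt
Tfcp2l1, chr1:118627695-118627944, plus strand: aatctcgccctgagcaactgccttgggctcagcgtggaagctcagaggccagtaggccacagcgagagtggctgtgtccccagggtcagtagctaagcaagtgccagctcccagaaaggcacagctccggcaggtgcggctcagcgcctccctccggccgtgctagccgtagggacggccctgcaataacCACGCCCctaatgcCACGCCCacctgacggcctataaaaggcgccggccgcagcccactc
Tcl1, chr12:105222794-105222987, minus strand: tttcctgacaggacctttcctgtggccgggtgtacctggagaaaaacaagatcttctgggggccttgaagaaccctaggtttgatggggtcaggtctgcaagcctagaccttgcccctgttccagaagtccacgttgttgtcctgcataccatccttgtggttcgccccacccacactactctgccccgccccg
Nanos3, chr8:84176553-84176802, minus strand: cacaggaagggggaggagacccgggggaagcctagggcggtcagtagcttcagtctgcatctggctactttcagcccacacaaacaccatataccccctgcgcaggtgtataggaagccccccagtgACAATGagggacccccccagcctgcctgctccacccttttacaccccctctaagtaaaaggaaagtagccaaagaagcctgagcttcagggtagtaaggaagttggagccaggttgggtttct

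The Nanog stretch held the Oct and Sox motifs side by side, beginning 75 and 67 bases before the start, and the Klf motif beginning 10 bases before it. Zfp42 held the Oct motif, Nanos3 the Sox motif, and Tfcp2l1 the Klf motif at 2 places on the other strand. None of these letters was found upstream of Tcl1 or Gbx2. Over the 32851 upstream stretches of the table, 4.12% held the Oct motif, 10.7% the Sox motif and 7.55% the Klf motif. The Esrrb motif, in 4.08% of all stretches, and the TCF/LEF motifs, in 4.46% (ending in A) and 3.21% (ending in T), were in 0 of the 6. A match describes letters only.

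The files held 25388139 to 37158661 counts per wild-type sample and 19915222 to 20140699 per Esrrb fl/fl sample. In all 6 groups replicate 1 stood apart. Its chi-square per gene against replicates 2 and 3 was 11.8 to 65.9, against 1.46 to 8.57 between replicates 2 and 3, all above sampling noise. The labels do not say that replicates were separate cultures, so p-values measure the spread between these samples, which may be technical. All 6 ES cell genes examined, Pou5f1, Sox2, Sall4, Lin28a, Tdgf1 and Dppa4, were detected in every group, summing to 1700 to 3342 CPM (counts scaled by library size). Levels below are CPM with trimmed-mean scaling, as mean ± SD with n = 3, and a gene was called changed at an adjusted p under 0.01 with an absolute log2 fold change above 1 in edgeR's quasi-likelihood test, adjusted by Benjamini-Hochberg over all genes tested. RNA was taken from whole cultures, so fewer cells expressing a gene and less RNA per cell cannot be told apart. With replicate 1 of every group left out, an alternative chosen after seeing the data that leaves 2 samples a group, the calls were 10 of the 10 genes higher in CH over DMSO, 2 higher in 2i over CH, and 1 higher and 1 lower after 4OHT. Between FGF2_Activin and DMSO 1 was then called higher, Nanog, and 1 lower.

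Esrrb, the floxed gene, stood at 142, 110 and 109 CPM in the 3 Esrrb_NT samples and at 58.9, 63.8 and 59.8 CPM in the 3 Esrrb_4OHT samples. The groups did not overlap, and the log2 fold change was -0.99 with an adjusted p of 7.44e-05 in edgeR's test. Counts over a whole gene do not distinguish transcripts with the floxed exons from those without, so this value does not measure how complete the deletion was. In wild-type cells Esrrb was at 15.3 CPM in DMSO, 14.03 in FGF2_Activin, 321 in CH and 550 in 2i.

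CHIR99021 raised all 10 genes over DMSO. Of the 16413 genes tested, 7.51% were called higher and 10.2% lower between CH and DMSO, against 10 and 0 of the naive factors. In every one of them the 3 CH samples lay above the 3 DMSO samples, a separation in that direction seen in 24.5% of all genes. The median log2 fold change was 3.89 over the 10 genes and -0.00 over all genes tested.

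Among the transcription factors, Prdm14 was at 0.107, 0.219 and 0.231 CPM in DMSO and at 6.64, 7.03 and 10.3 CPM in CH, a log2 fold change of 5.44 (SE 0.33). The DMSO values rest on 4 to 7 counts per sample. Tbx3 stood at 4.403, 1.94 and 1.85 CPM in DMSO against 70.4, 75.1 and 73.9 CPM in CH. This was a log2 fold change of 4.71 (SE 0.28), and the CH samples of Tbx3 lay close together. Tfcp2l1 was at 30.2, 9.36 and 7.75 CPM in DMSO and 298, 251 and 260 CPM in CH, a log2 fold change of 4.08 (SE 0.46). Gbx2 was at 0.507, 1.69 and 2.89 CPM in DMSO and 18.9, 11.4 and 13.4 CPM in CH, a log2 fold change of 3.13 (SE 0.46). DMSO replicate 1 was the highest of its group for Tbx3 and Tfcp2l1 and the lowest for Gbx2 and Prdm14.

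Nanog showed the widest spread. The DMSO samples were at 67.9, 5.92 and 2.78 CPM, so that replicate 1 held over 10 times the level of the other DMSO samples, and the CH samples were at 358, 248 and 276 CPM. The log2 fold change was 3.51 (SE 0.90, adjusted p = 0.00865 in edgeR's test). Without DMSO replicate 1 it was 6.05, still called, whereas without DMSO replicate 2 or 3, or any 1 of the 3 CH samples, it was 2.99 to 3.62 with an adjusted p of 0.0138 to 0.0266 and the call was lost. The call was also lost with only these 6 samples in the fit (adjusted p = 0.0468) and in edgeR's glmTreat test against a log2 fold change of 1 (adjusted p = 0.0396), and DESeq2's test, which called the other 9 genes, gave Nanog no adjusted p. With the replicate number as a block Nanog had 4.10 with an adjusted p of 0.000254, and with replicate 1 of every group left out it had 5.87 and was called.

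DMSO replicate 1 differed from its group in other genes too. Fgf5 and Pou3f1, genes of the formative epiblast, were at 27.5 and 72.5 CPM there. In the other DMSO samples Fgf5 was at 54.2 and 58.8 CPM and Pou3f1 at 170 and 207 CPM. The 10 formative genes summed to 3003 to 4730 CPM in DMSO. Their part in the Nanog values was not tested.

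Among the markers, Tcl1 was at 1.60, 0.814 and 0.540 CPM in DMSO and 23.6, 27.7 and 31.2 CPM in CH, a log2 fold change of 4.75 (SE 0.28). Dppa3 was at 3.496, 3.04 and 2.08 CPM in DMSO against 43.6, 36.9 and 32.9 CPM in CH, or 3.71 (SE 0.33) on the log2 scale. Zfp42 had the smallest error of the 10, with 50.8, 41.5 and 35.8 CPM in DMSO, 326, 396 and 465 CPM in CH, and a log2 fold change of 3.21 (SE 0.16). Nanos3 was near the limit of detection in DMSO, with 3, 1 and 0 counts, and had 64, 94 and 53 counts in CH. The ratio of CH to DMSO was 59.2, with an exact 95% counting interval of 22.8 to 219 that covers counting error only, and the fitted log2 fold change was 5.76 (SE 0.67).

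Fbxo15 responded least. It stood at 68.3, 38.5 and 32.2 CPM in DMSO and at 126, 103 and 113 CPM in CH, a log2 fold change of 1.298 (SE 0.28, adjusted p = 0.00300 in edgeR's test). Its 95% interval, 0.69 to 1.90, reached that of only 1 other member, Nanog, whose interval ran from 1.54 to 5.48. The Fbxo15 call was lost without DMSO replicate 2 (1.18, adjusted p = 0.0155), without DMSO replicate 3 (1.10, adjusted p = 0.0119), with only these 6 samples in the fit (adjusted p = 0.0114) and in glmTreat (adjusted p = 0.287). Ranked by fold change the order was Nanos3, Prdm14, Tcl1, Tbx3, Tfcp2l1, Dppa3, Nanog, Zfp42, Gbx2 and Fbxo15. Apart from the step from Gbx2 to Fbxo15, the 95% intervals of neighbours overlapped. Overlap also reached beyond neighbours, since the interval of Nanog overlapped with those of 9 other members and that of Tfcp2l1 with those of 8. With replicate 1 of every group left out, Nanog had 5.87, Prdm14 5.24 and Gbx2 2.47. Differences between genes were not tested, so the order is not settled.

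**Figure D1:**
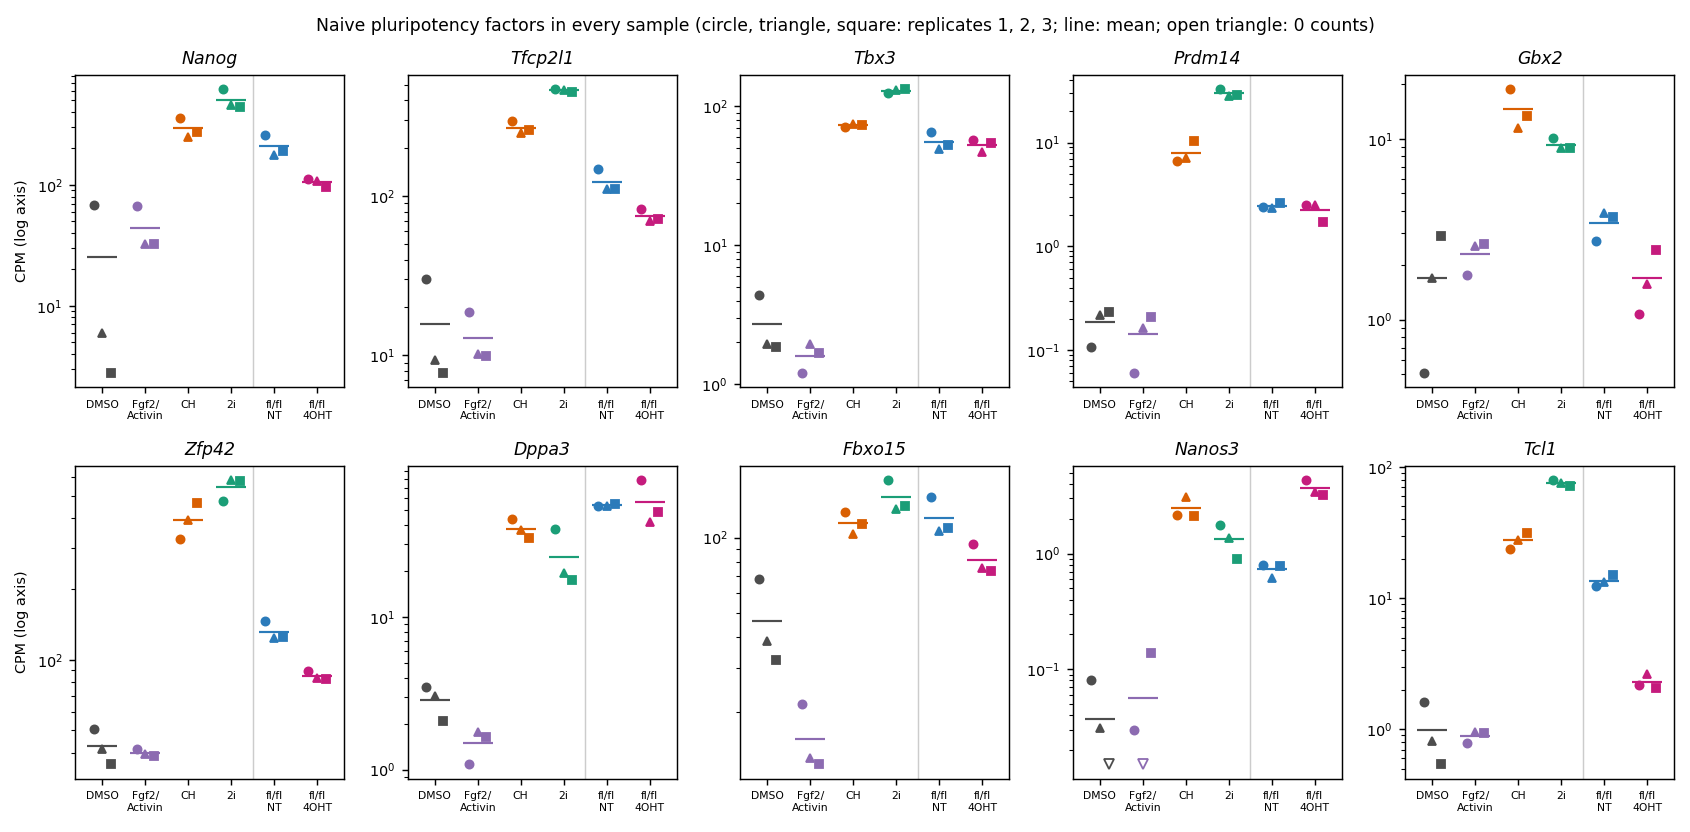
Level of each of the 10 genes in CPM on a log axis, 1 panel a gene, in the 4 wild-type groups (left of the grey line) and the 2 Esrrb fl/fl groups (right of it). Circles, triangles and squares are replicates 1, 2 and 3, short lines are group means, and open triangles stand for samples with 0 counts. DMSO and FGF2_Activin samples lie below CH and 2i samples in every panel, and Nanog in DMSO spreads from 2.78 to 67.9 CPM.

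Prdm14 and Tcl1 were higher still with the MEK inhibitor added to CHIR99021. Of all genes tested, 0.317% were called higher and 1.67% lower between 2i and CH, against 2 and 0 of the 10 naive factors. Prdm14 stood at 33.0, 28.1 and 29.0 CPM in 2i, with a log2 fold change over CH of 1.91 (SE 0.24, adjusted p = 0.00104 in edgeR's test). Tcl1 stood at 79.4, 75.5 and 71.5 CPM in 2i, with a log2 fold change of 1.46 (SE 0.22, adjusted p = 0.00273). Both groups were well apart, and CH held 26.6% of the 2i level of Prdm14 and 36.5% of that of Tcl1.

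Both calls failed in glmTreat against a log2 fold change of 1, with adjusted p-values of 0.0390 for Prdm14 and 0.400 for Tcl1. Without CH replicate 2, or any 1 of the 3 samples of 2i, Tcl1 had an adjusted p of 0.0113 to 0.0162 and was not called.

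Of the other 8 genes, 5 had all 2i samples above all CH samples without being called. With Prdm14 and Tcl1 this made 7 of 10, against 12.7% of all genes. Tbx3 was at 125, 131 and 134 CPM in 2i, Tfcp2l1 at 472, 461 and 450 CPM, and Nanog at 622, 459 and 436 CPM. CH held 56.4%, 58.4% and 58.1% of these 2i levels, in that order. The log2 fold changes were 0.83 for Tbx3 (95% interval 0.31 to 1.34), 0.78 for Tfcp2l1 (-0.12 to 1.67) and 0.78 for Nanog (-1.001 to 2.57). Zfp42, at 475, 583 and 578 CPM in 2i, had 0.46 (0.15 to 0.78), and Fbxo15, at 170, 131 and 134 CPM, had 0.34 (-0.25 to 0.94).

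Gbx2, Dppa3 and Nanos3 had lower means in 2i than in CH, and none of the 3 was called, had an unadjusted p under 0.05 in edgeR's test or was called in DESeq2's. Gbx2 was at 10.1, 8.88 and 8.84 CPM in 2i, and Nanos3 at 1.78, 1.36 and 0.906 CPM. All 2i samples of both genes lay below all CH samples, which 13.1% of all genes did. The log2 fold changes were -0.66 (95% interval -1.57 to 0.26) for Gbx2 and -0.87 (-1.85 to 0.11) for Nanos3. Dppa3 was at 37.8, 19.3 and 17.4 CPM in 2i and overlapped with CH, with -0.61 (-1.24 to 0.03). For these genes the CH mean was 158% (Gbx2), 183% (Nanos3) and 152% (Dppa3) of the 2i mean.

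Per kilobase of exon, which allows levels to be set between genes, the order in 2i was Zfp42 with 290 ± 32.5 CPM per kilobase, Nanog with 226 ± 45.4, Tfcp2l1 with 48.9 ± 1.16, Fbxo15 with 43.1 ± 6.53, Tcl1 with 40.9 ± 2.15, Dppa3 with 27.8 ± 12.6, Tbx3 with 19.6 ± 0.69, Prdm14 with 11.7 ± 1.01, Gbx2 with 4.25 ± 0.32 and Nanos3 with 1.46 ± 0.471 (SD, n = 3). Zfp42 and Nanog, Tfcp2l1 and Fbxo15, Fbxo15 and Tcl1, Tcl1 and Dppa3, and Dppa3 and Tbx3 were neighbours whose ranges of mean ± SD overlapped. The full exon length was used, although 43.45% of that of Gbx2 overlaps an antisense gene. Dppa3, Zfp42 and Nanog share 54.1%, 26.9% and 20.6% of their longest transcripts with other genes. How reads in such stretches were counted was not given, so the places of these genes in the order are uncertain. In DMSO the means of Zfp42, Fbxo15 and Nanog were the highest, at 22.7 ± 4.01, 13.8 ± 5.74 and 11.4 ± 16.4 CPM per kilobase. DMSO held 32.0% of the 2i level of Fbxo15, 18.3% of that of Gbx2 and 11.6% of that of Dppa3, and 0.619% to 7.83% for the other 7 genes.

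Fgf2 and Activin A lowered 1 of the 10 genes relative to DMSO. Of all genes tested, 0.902% were called higher and 0.347% lower, against 0 and 1 of the naive factors. None was higher at an unadjusted p under 0.05 in edgeR's test, and DESeq2's test, again without an adjusted p for Nanog, called 0 higher and 1 lower. Fbxo15 was at 21.5, 13.1 and 12.3 CPM in FGF2_Activin, below every DMSO sample, with a log2 fold change of -1.57 (SE 0.28, adjusted p = 0.00977 in edgeR's test). Dppa3, at 1.08, 1.77 and 1.63 CPM, also lay below every DMSO sample but was not called (-0.95, adjusted p = 0.165). The other 8 overlapped with DMSO, and 12.5% of all genes had every FGF2_Activin sample below every DMSO sample.

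The Fbxo15 value lay close to the threshold. It was not called without DMSO replicate 1 (-1.17, adjusted p = 0.0162), DMSO replicate 2 (-1.68, 0.0171), FGF2_Activin replicate 2 (-1.45, 0.0519) or FGF2_Activin replicate 3 (-1.42, 0.0544). It was likewise not called with only these 6 samples in the fit (adjusted p = 0.0649) or in glmTreat (adjusted p = 0.678).

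The Nanog value turned on DMSO replicate 1. Its FGF2_Activin samples were at 67.2, 32.7 and 32.7 CPM, and against the 3 DMSO samples the log2 fold change was 0.78 (SE 0.83, adjusted p = 0.725). Without DMSO replicate 1 it was 3.32 with an adjusted p of 0.00204 and Nanog was called higher, as it was with replicate 1 of every group left out (2.87, adjusted p = 1.78e-08). Between samples of the same number, Nanog in FGF2_Activin was 0.991 times DMSO in replicate 1, 5.52 times in replicate 2 and 11.8 times in replicate 3. With the replicate block it had 1.23 and an adjusted p of 0.202. The comparisons of CH and of FGF2_Activin share the DMSO samples, and those of CH with DMSO and of 2i with CH share the CH samples.

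**Figure D2:**
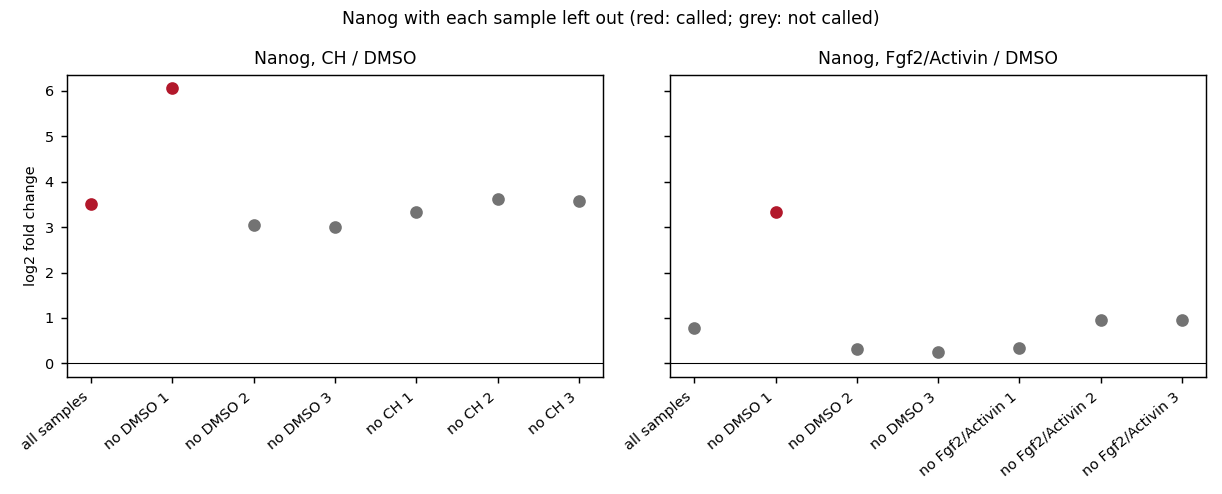
Log2 fold change of Nanog between CH and DMSO (left) and between FGF2_Activin and DMSO (right), with all samples and with each sample left out in turn. Red points passed the threshold and grey points did not, and the values without DMSO replicate 1, 6.05 and 3.32, are the highest in each panel.

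In CHIR99021-treated Esrrb fl/fl cells, 4OHT lowered Tcl1 and raised Nanos3. Of the 14893 genes tested, 12.8% were called higher and 3.87% lower, against 1 and 1 of the 10 naive factors. Tcl1 was at 12.3, 13.3 and 15.1 CPM in Esrrb_NT and at 2.19, 2.63 and 2.06 CPM in Esrrb_4OHT, 16.9% of the untreated mean. The log2 fold change was -2.56 (SE 0.15, adjusted p = 5.20e-06 in edgeR's test). Nanos3 was at 0.797, 0.615 and 0.776 CPM in Esrrb_NT, from 12 to 15 counts, and at 4.33, 3.45 and 3.20 CPM in Esrrb_4OHT, from 67 to 89 counts. Its log2 fold change was 2.32 (SE 0.23, adjusted p = 5.13e-05). The 95% intervals of Tcl1 and Nanos3 overlapped with that of no other member, and both calls held without any 1 of the 6 samples.

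A further 5 genes had every Esrrb_4OHT sample below every Esrrb_NT sample without reaching both thresholds. With Tcl1 this made 6 of 10, against 31.5% of all genes, and Nanos3 alone had every treated sample higher, against 34.4% of all genes. Nanog was at 259, 177 and 191 CPM in Esrrb_NT and 111, 108 and 95.1 CPM in Esrrb_4OHT. Its log2 fold change of -0.999 (SE 0.13, adjusted p = 0.000278 in edgeR's test) fell just short of the fold threshold. Nanog was called without Esrrb_4OHT replicate 1 or 2 or without Esrrb_NT replicate 2 or 3 (-1.03 to -1.11), with DESeq2's size factors (-1.01) and in DESeq2's test (-1.01), and with no filter on low counts (-1.01).

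Gbx2 was at 2.71, 3.89 and 3.67 CPM in Esrrb_NT and 1.07, 1.58 and 2.44 CPM in Esrrb_4OHT, and its log2 fold change of -1.01 (SE 0.29) had an adjusted p of 0.0154. With the replicate block it was -1.03 with an adjusted p of 0.000849, and Gbx2 was called. It was also called without Esrrb_4OHT replicate 3 (-1.36, adjusted p = 0.00553), with no filter on low counts (-1.02, adjusted p = 0.00615) and in DESeq2's test (-1.03, adjusted p = 0.00706). The exons of Gbx2 (chr1:89927956-89931179, minus strand) overlap over 43.45% of their length with an antisense gene, D130058E05Rik. Counting took no account of strand, so reads within the overlap cannot be assigned to either gene by strand. How such reads were counted was not given in the sources used here. D130058E05Rik, named for this overlap, had 31.0% as many counts as Gbx2 over the 18 samples.

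Tfcp2l1, Zfp42 and Fbxo15 had adjusted p-values under the threshold but smaller folds. Tfcp2l1 was at 148, 110 and 110 CPM in Esrrb_NT and 82.6, 70.2 and 71.9 CPM in Esrrb_4OHT, with -0.72 (SE 0.12, adjusted p = 0.000976 in edgeR's test). Zfp42 was at 146, 123 and 125 CPM against 89.8, 83.5 and 82.6 CPM, or -0.63 (adjusted p = 0.000154). Fbxo15 was at 145, 106 and 109 CPM against 94.6, 75.8 and 73.5 CPM, or -0.56 (adjusted p = 0.00671).

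Tbx3, Prdm14 and Dppa3 overlapped between the groups. Tbx3 was at 65.2, 48.9 and 52.7 CPM in Esrrb_NT and 57.6, 47.0 and 53.9 CPM in Esrrb_4OHT, a log2 fold change of -0.07 with a 95% interval of -0.34 to 0.19. Prdm14 was at 2.39, 2.36 and 2.59 CPM against 2.48, 2.49 and 1.72 CPM, or -0.13 (-0.59 to 0.32). Dppa3 was at 52.9, 53.2 and 55.1 CPM against 78.7, 41.7 and 49.0 CPM, or 0.07 (-0.38 to 0.52). All 3 intervals lay inside the fold threshold in both directions.

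**Figure D3:**
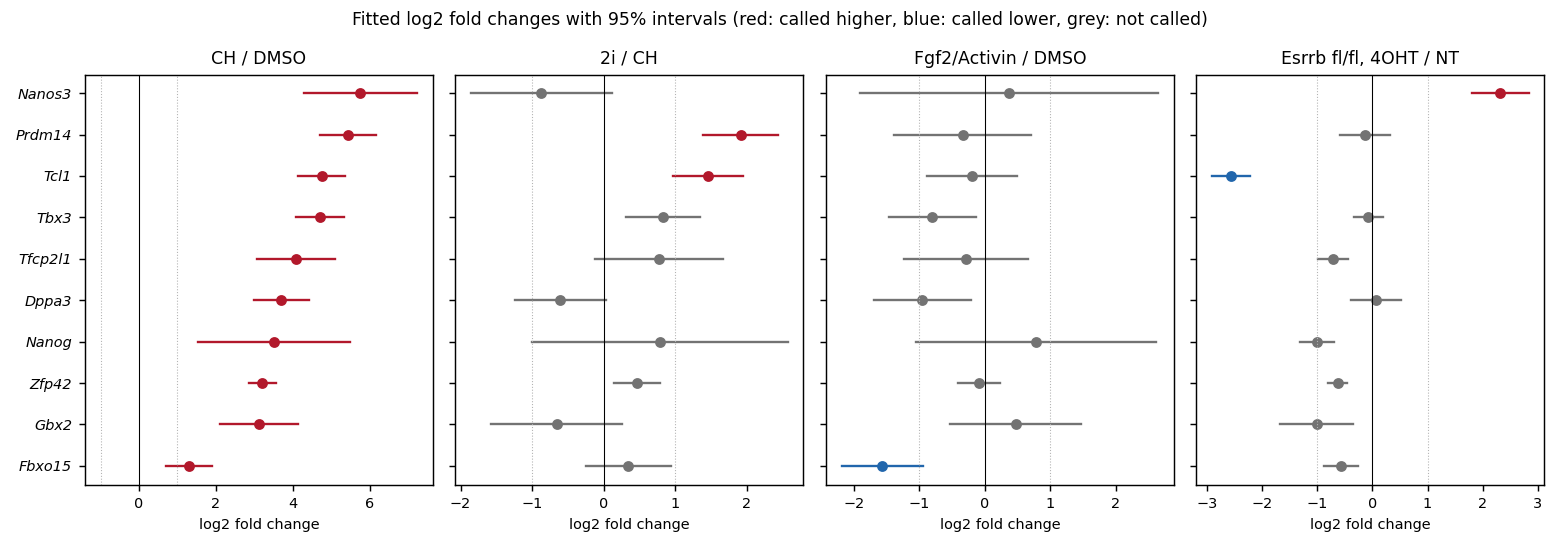
Fitted log2 fold change (point) with its 95% interval (bar) for the 10 genes in the 4 comparisons, with genes ordered by CH over DMSO. Red is called higher, blue called lower and grey not called, dotted lines mark a log2 fold change of 1 in either direction, and each panel has its own axis range. All 10 genes are red for CH over DMSO, and after 4OHT Nanos3 is red and Tcl1 blue.

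Set side by side, the responses to the MEK inhibitor and to 4OHT differed among the 10 genes. Prdm14 and Tcl1 were the pair called higher with the MEK inhibitor, and of these Tcl1 was lower after 4OHT and Prdm14 had -0.13. Nanos3 had the lowest value for 2i over CH, -0.87, and was the one gene raised after 4OHT. Tbx3, Tfcp2l1, Nanog, Zfp42 and Fbxo15 had values above 0 for the MEK inhibitor and below 0 for 4OHT, where Tbx3 had -0.07. Dppa3 had -0.61 for the MEK inhibitor and 0.07 for 4OHT. Gbx2 was below 0 in both. The comparisons come from different lines and culture times.

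**Figure D4:**
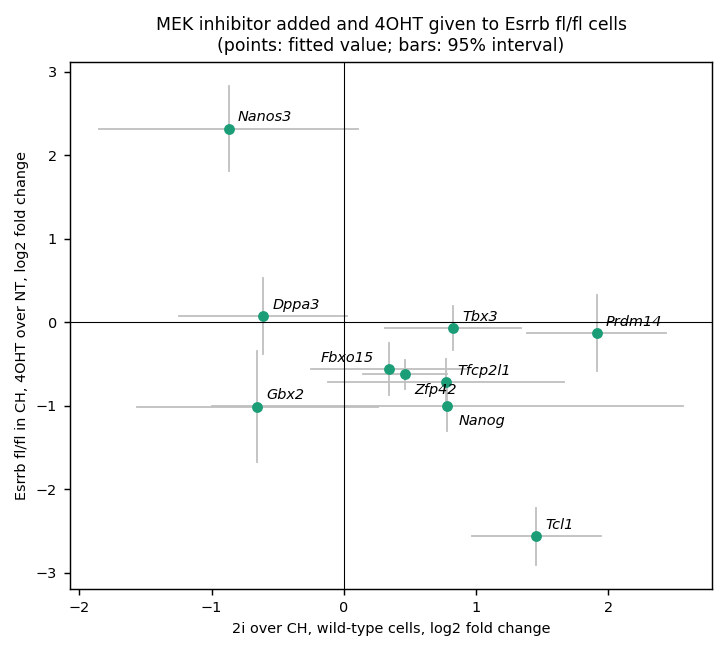
Log2 fold change of 2i over CH in wild-type cells (horizontal) against that of Esrrb_4OHT over Esrrb_NT (vertical) for the 10 genes, with 95% intervals as bars. Tcl1 lies at 1.46 and -2.56, Nanos3 at -0.87 and 2.32, and Prdm14 at 1.91 and -0.13.

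The profile of Tfcp2l1 was most like that of Esrrb. Over the 18 samples, with log2(CPM + 1) centred within each experiment, the Pearson correlation of Tfcp2l1 with Esrrb was 0.9985, the highest of 10985 genes compared, and the next gene was Bcap31 with 0.9888. The samples share 6 groups, so that any gene high with CHIR99021 correlates with these genes. Tbx3 was most like Trap1a (0.9939) and Mylpf (0.9935), Zfp42 like Mylpf (0.9953) and Il6st (0.9940), Prdm14 like Gna13 (0.9912), Tcl1 like Rfx2 (0.9943) and Mitf (0.9926), and Nanog like Klc4 (0.9679). Fbxo15 was most like Mageb16 (0.9860), Dppa3 like Pdzrn4 (0.9767), Nanos3 like Crot (0.9741) and Gbx2 like Lhpp (0.9736). Among the 10 genes themselves, Tbx3 and Zfp42 had the highest correlation, 0.9883, and Nanos3 and Tcl1 the lowest, 0.5163.

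**Figure D5:**
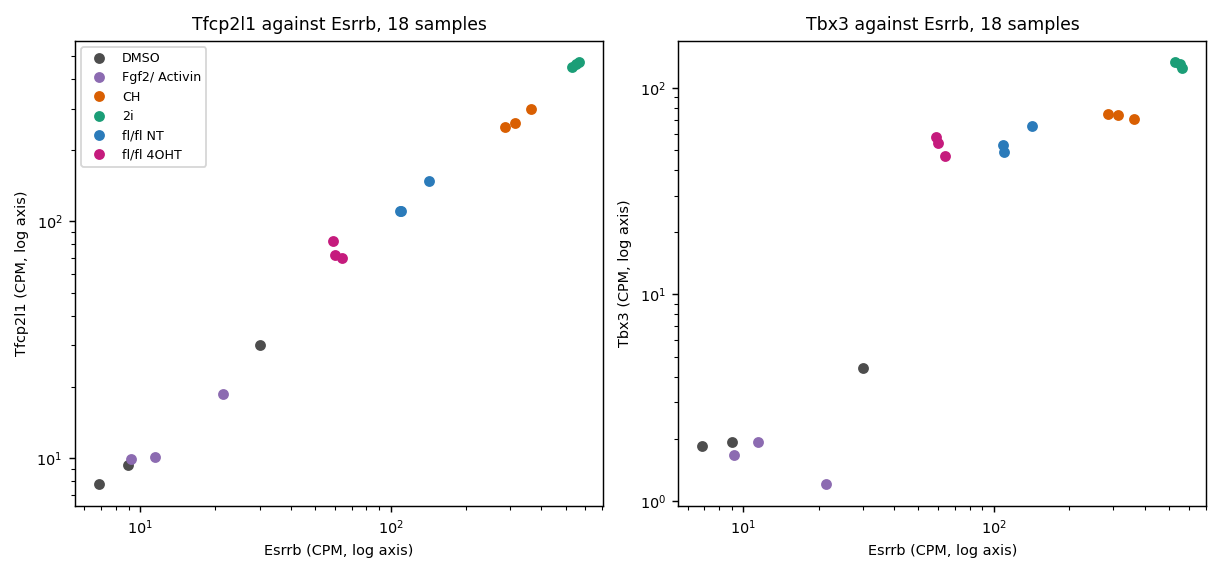
Level of Tfcp2l1 (left) and Tbx3 (right) against Esrrb in the 18 samples, in CPM on log axes, coloured by group. Tfcp2l1 rises with Esrrb across all groups, whereas Tbx3 in the Esrrb_4OHT samples, at 47.0 to 57.6 CPM, lies level with Esrrb_NT at lower Esrrb counts. Those counts cover the whole gene, with or without the floxed exons, and do not measure intact Esrrb.

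Other genes of the network gave the setting. Of 25 other pluripotency factors, 13 were higher and 2 lower in CH than in DMSO. Nr5a2 (5.26) and Nr0b1 (4.66), nuclear receptors, and Esrrb (4.37) had the largest log2 fold changes. Tcf7l1 (-1.96), the repressor relieved by β-catenin, and Utf1 (-1.499) were lower. Between 2i and CH 1 of the 25 was higher, Fgf4 with 1.36, and 0 were lower. FGF2_Activin raised Dppa5a (1.58) and lowered Klf2 (-2.03). After 4OHT 8 of the 25 were lower and 0 higher, led by Nr0b1 (-2.71), Nr5a2 (-2.45) and Sox2 (-2.41).

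Of 10 formative epiblast genes, 7 were lower and 1 higher in CH than in DMSO, with Fgf5 (-7.03), Pou3f1 (-6.23) and Sall2 (-5.88) lowest and Tcf15 higher (1.92). None was called between 2i and CH or between FGF2_Activin and DMSO, and after 4OHT Fgf5 was higher (2.62) and Tcf15 (-1.91) and Otx2 (-1.60) were lower. Of 9 germ cell genes tested of 10, 3 were higher in CH than in DMSO, Kit, Tfap2c and Dnd1, and 3 were lower. In 2i 1 was lower than in CH, Mael with -1.14, and 1 was lower in FGF2_Activin than in DMSO. After 4OHT Ddx4 was higher (1.05) and Kit lower (-1.37). Of 15 paralogues and other relatives of the 10 genes, 7 passed the filter in wild-type cells and 6 in Esrrb fl/fl cells, and 0 were called in any comparison. Tcl1b5 and Yy2 were at 0 in every sample.

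Markers of other cell types moved with some groups. T (Brachyury), which marks the primitive streak, was at 0.468 CPM in DMSO, 534 in CH, 91.0 in 2i, 42.9 in Esrrb_NT and 402 in Esrrb_4OHT. Nanos3 in the same groups was at 0.0371, 2.46, 1.35, 0.729 and 3.66 CPM. The 5 primitive streak genes summed to 8.91 to 14.1 CPM in DMSO, 464 to 702 in CH and 86.3 to 119 in 2i. They summed to 79.5 to 100.2 in Esrrb_NT and 446 to 573 in Esrrb_4OHT, and none was at 0 throughout a group. These sums were mostly 1 gene in some groups. T alone was at 436 to 665 CPM in CH and 313 to 448 in Esrrb_4OHT, and Eomes at 8.33 to 13.3 in DMSO. Between CH and DMSO 4 of the 5 rose and 1 fell, Eomes. Between 2i and CH 4 fell, and after 4OHT 4 rose. FGF2_Activin raised 1 of the 5. Their part in the Nanos3 values was not tested.

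The other lists were small. Between CH and DMSO 2 of 8 primitive endoderm genes rose and 2 fell, 1 of 2 trophectoderm genes tested rose (Cdx2) and 1 fell (Eomes), 1 of 4 neural genes fell (Nes) and 2 of 3 fibroblast genes fell. Between 2i and CH 2 primitive endoderm genes, 1 trophectoderm gene and 1 neural gene fell. FGF2_Activin changed 0 genes of these lists. After 4OHT 2 of 5 primitive endoderm genes rose and 1 fell, 1 of 3 trophectoderm genes rose, 1 of 2 neural genes rose (Nes) and 1 fell, and 2 of 3 fibroblast genes rose and 1 fell (Thy1). The 5 genes of 2-cell-like cells were filtered out, at a sum of at most 0.840 CPM. Of 6 targets of p53, Cdkn1a rose in CH (1.85) and after 4OHT (1.27), and 0 were called in the other comparisons. Of the 6 ES cell genes, Sox2 was higher in CH than in DMSO (2.01) and lower after 4OHT, and the other 5 were not called.

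Some of the 10 genes share sequence with other genes, where a match was at least 75 bases at 95% identity. Dppa3 shared 54.1% of its longest transcript, chiefly with the pseudogene Dppa3-ps, Zfp42 26.9% with Zfp42-ps1, and Nanog 20.6% with 66 genes, Nanog-ps1 among them. Over all 18 samples Nanog-ps1 had 1 count and Dppa3-ps 2 counts. How reads that fit several places were counted was not given in the sources used here, so the levels of these 3 genes are uncertain to that extent. Prdm14, Fbxo15, Nanos3 and Tcl1 shared no such stretch.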

How the data were processed

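Poly(A) RNA of 18 samples was sequenced, and groups and replicate numbers were read from the labels. The authors used TopHat2 with mm10 and HTSeq with Ensembl GRCm38 genes, ignoring strand, and deposited raw counts of 49671 genes. Symbols for 49326 of these, positions and overlaps came from GENCODE's GRCm38 annotation.

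Here the 12 wild-type samples and the 6 Esrrb fl/fl samples were fitted separately in edgeR 4.0.16 (R 4.3.3), with TMM scaling, filterByExpr, glmQLFit and glmQLFTest, and 1 coefficient a group. The thresholds (adjusted p 0.01, log2 fold change 1 in size) follow the study's methods. Depth, 19915222 to 37158661 counts per sample, limits precision for Nanos3, Prdm14 and Gbx2. The design had planned a bound for Nanos3 in DMSO, and a ratio with its exact counting interval is given instead.

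The 10 genes and the lists were chosen with earlier results of these data known. Named besides them are Esrrb, the called genes of each list with at least 100 counts on average (up to 3 a direction by fold change), and the genes of most like profile. Of the genes meeting this rule, some are given by count only. Same-numbered samples deviated together (r = 0.394 to 0.841 over 18 pairs of wild-type samples and 0.387 to 0.566 over 3 pairs of Esrrb fl/fl samples). Replicates 2 and 3 deviated together as much across numbers (mean r = 0.553 in wild-type and 0.392 in Esrrb fl/fl samples) as within them (0.554 and 0.389), so what was shared was replicate 1 against the others. A fit with the number as a block was an alternative. Others were DESeq2 1.42.0, its size factors, no filter, no fold minimum, glmTreat, fits of 6 samples, leaving out each sample and, added after seeing the data, leaving out replicate 1 of every group. The fits were also run on simulated data of independent samples. Those data held no shared difference of replicate 1, so they do not show how the fits behave with it. Shared sequence was found with blastn 2.17.0, and plots were drawn with matplotlib 3.10.9.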

Additional observations from a re-analysis of the deposited data

How the results depend on the processing

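All 10 genes had log2 fold changes above 0 between CH and DMSO in every edgeR alternative run. So had the 9 with an adjusted p in DESeq2's test, in which Nanog had no adjusted p. With each sample left out, 8 to 10 were called. Between 2i and CH, 2 were called higher, against 0 in glmTreat and 1 to 2 with each sample left out. Between FGF2_Activin and DMSO, 1 was called lower, against 0 in glmTreat, 0 with only the 6 samples compared and 0 to 1 with each sample left out, and 0 were called higher, against 0 to 1 with each sample left out and 1 with replicate 1 of every group left out. After 4OHT, 1 was called lower, against 5 with no minimum fold change, 2 with DESeq2's size factors, 3 with no filter on low counts, 3 in DESeq2's test and 1 to 2 with each sample left out. With the replicate block 2 were called lower, since Gbx2 passed (-1.03), and the block changed no other call among the 10 genes.

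Signs turned only for values that were not called, with each sample or replicate 1 of every group left out. Between FGF2_Activin and DMSO the log2 fold changes ran from -0.66 to 0.60 for Tfcp2l1, from -0.20 to 0.0497 for Zfp42, from -0.46 to 0.37 for Tcl1, from -1.20 to 1.45 for Nanos3 and from -0.69 to 0.0484 for Prdm14. After 4OHT they ran from -0.24 to 0.24 for Dppa3, from -0.23 to 0.0276 for Prdm14 and from -0.17 to 0.0530 for Tbx3. Without replicate 1 of every group, values between FGF2_Activin and DMSO were 0.22 for Tfcp2l1, 0.0242 for Zfp42 and 0.46 for Tcl1, and Dppa3 had -0.26 after 4OHT. Where samples were left out, fewer samples entered the fit, and other causes were not tested. Over all genes the block raised the calls between 2i and CH from 52 higher and 274 lower to 138 and 534, and between FGF2_Activin and DMSO from 148 and 57 to 275 and 149, while glmTreat left 1 and 46 and 45 and 12. Few counts limit Nanos3 and Prdm14 in DMSO and FGF2_Activin.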
